A study of Mus musculus with 23 samples.

Results

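A set of genes that mark Sertoli cells or shape the niche of the germ line were followed in TM4 cells. The set held 10 genes of 20145 named on the array, namely Sox9, Gata4, Wt1, Dhh, Kitl, Gdnf, Amh, Fshr, Clu and Trf. They were taken by name as textbook Sertoli cell genes, with earlier results of these data known. Each was read with every probe whose RefSeq transcript belonged to it, which gave 11 probes (2 for Trf). TM4 is an immortalized mouse Sertoli cell line, so every culture was 1 cell line grown without germ cells or the other cells of the testis. The cells were exposed for 48 hr to 100 μM of MEHP (mono(2-ethylhexyl) phthalate, into which the body turns a widely used phthalate plasticizer), diisononyl cyclohexane-1,2-dicarboxylate (DINCH, a commercial plasticizer), dioctyl maleate (DOM), 1,4-butanediol dibenzoate (BDB) or dioctyl succinate (DOS), all in 1% DMSO, or to 1% DMSO alone. RNA of each culture was hybridized to its own 1-colour array, with 4 arrays per group and 3 for DOS (replicates 1, 3 and 4).

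Sertoli cells enclose the germ cells of the seminiferous tubule. SOX9, GATA4 and WT1 are transcription factors that set up and keep their identity. Their secreted products act on neighbouring cells: DHH (desert hedgehog) signals to Leydig and peritubular cells, KITL (stem cell factor) and GDNF support spermatogonia, and AMH (anti-Müllerian hormone) regresses the female ducts. FSHR receives follicle-stimulating hormone, and clusterin (Clu) and transferrin (Trf) are abundant secreted proteins of the mature cell.

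Levels are log2 values of the signal relative to the 75th percentile of the same array, so 0 is that percentile and 1 unit is a doubling. A level belongs to 1 probe and was compared between samples, not between genes. A probe was called detected on an array when the scanner software marked it well above background. A gene was called changed when limma's moderated test gave an adjusted p below 0.05 and the level differed by over 1.5-fold. The replicates were described as biological, and the p-values measure the spread between them. In bulk RNA, fewer cells that express a gene and less RNA per cell cannot be told apart.

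The 23 arrays lay on 3 slides. The 75th percentile of signal ranged from 204.6 to 350.7 between arrays, 43.4% to 52.2% of spots were well above background and no spot was saturated. DMSO, DOM and DOS arrays shared the same rows of the slides, while MEHP, DINCH and BDB arrays lay in other rows, so that for these 3 compounds the row and the treatment cannot be told apart.

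Dhh carried the change that held under every setting tried, and its promoter sequence is therefore shown. These are the 228 bases just upstream of the outermost annotated start of Dhh (GRCm38.p6, chr15:98898563-98898790, minus strand, from RefSeq), 5′ to 3′, with the motifs GATAA and GGGCGG on either strand in capitals.
Dhh: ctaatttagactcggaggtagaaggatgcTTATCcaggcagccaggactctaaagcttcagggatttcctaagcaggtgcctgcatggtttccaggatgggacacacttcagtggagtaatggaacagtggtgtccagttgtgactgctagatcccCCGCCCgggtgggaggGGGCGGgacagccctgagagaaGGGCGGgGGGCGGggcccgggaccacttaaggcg
The stretch was 59.2% G and C. It held 1 match to GATAA, the core bound by GATA factors such as the product of Gata4, on the opposite strand. It held 4 matches to GGGCGG, the GC box. ACAAT, the core of SOX motifs, was not among these letters. Over the same window of 32851 mouse promoters, 21.4% held GATAA, 29.5% held GGGCGG and 26.2% held ACAAT.

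Only part of the Sertoli cell program was detected in these cells. Gata4, Dhh and Kitl were detected on 23 of 23 arrays and Sox9 on 20. Clu was detected on 12 arrays, Gdnf on 3, and Amh and Trf on 1 each (for Trf by 1 of its 2 probes). Wt1 and Fshr were detected on no array. In the DMSO cultures the mean level was 1.1 ± 0.12 (SD, n = 4) for Dhh, -0.15 ± 0.31 for Gata4, -2.48 ± 0.54 for Kitl, -3.11 ± 0.11 for Sox9 and -3.99 ± 0.39 for Clu. Thus the transcription factors Sox9 and Gata4 and the ligands Dhh and Kitl were read on all 4 vehicle arrays, and Wt1, Gdnf, Amh, Fshr and Trf on none of them.

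**Figure D1:**
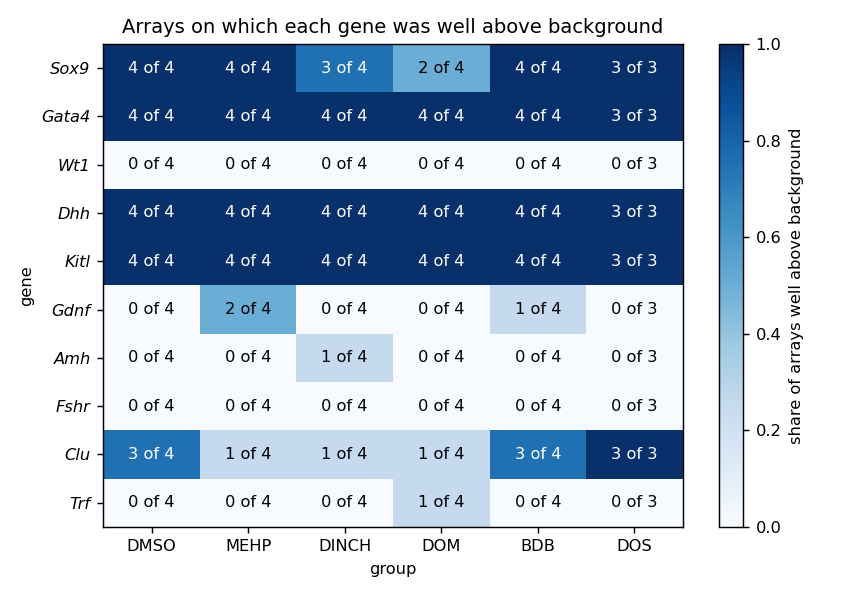
Number of arrays of each group (columns) on which each gene (rows) was well above background, with the shade giving the share of the group's arrays. Gata4, Dhh and Kitl were detected on all 23 arrays, whereas Wt1 and Fshr were detected on none.

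The label of the line was set beside markers of other cells of the gonad. On every DMSO array, 4 of 10 Sertoli markers were detected, against 3 of 6 granulosa, 1 of 5 Leydig, 3 of 5 peritubular myoid, 0 of 5 germ cell, 4 of 6 stromal fibroblast, 2 of 4 endothelial and 1 of 3 macrophage markers. Foxl2, a transcription factor that maintains granulosa cell identity in the ovary, had a level of 5.65 ± 0.39 (SD, n = 4) in DMSO and was detected on all 23 arrays. Among the genes found on no array were Rspo1 (granulosa), Cyp11a1 and Lhcgr (Leydig), Myh11 (myoid), Ddx4 and Dazl (germ), Cdh5 (endothelial) and Ptprc (macrophage). Other markers of these lists were detected on all 23 arrays, among them Inhba (granulosa), Cyp17a1 (Leydig), Acta2 and Tagln (myoid), Kdr (endothelial) and Csf1r (macrophage). The marker lists did not single out the Sertoli list, and the absence of Wt1 and Fshr signal went against the label, so the genes are described here by name.

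Dhh was 2.13-fold higher after DINCH, the largest change of a tested gene of the set against the vehicle. The level of Dhh was 1.23, 1.04, 1.18 and 0.97 on the 4 DMSO arrays. After DINCH it was 2.56, 1.94, 2.12 and 2.17, so that every DINCH array lay above every DMSO array. The change was 1.09 on the log2 scale (SE 0.14, 95% interval 0.78 to 1.41, adjusted p = 0.00409). Within slides 1, 2 and 3 the difference was 1.33, 0.83 and 1.18. It was called under 20 of 20 alternative settings, with adjusted p from 1.95e-05 to 0.049. Dhh was the 1 gene called of the 4 members tested for DINCH, while 8.26% of the 11913 genes tested were called and 4.25% were called higher.

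After MEHP, Dhh was also higher, by less. The 4 MEHP arrays read 1.69, 1.45, 1.75 and 1.5, all above the DMSO arrays. The log2 change of 0.49 (SE 0.10, adjusted p = 0.0462) passed the test but, at 1.41-fold, not the limit on size. It was called under 1 of 20 alternative settings, that with no limit on size. The adjusted p ranged from 0.0237 to 0.333, the highest with no filter on dim probes. None of the 4 members tested was called for MEHP, against 1.68% of all genes tested.

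Dhh in DOM cultures read 1.11, 0.51, 0.53 and 0.70, and 3 of the 4 arrays lay below all DMSO arrays. The change of -0.39 did not pass the unpaired test (SE 0.14, adjusted p = 0.0674). With the replicate number as a block it passed (adjusted p = 0.0396) but, at 1.31-fold lower, not the limit on size. Whether the numbers pair DOM with DMSO was not settled. After BDB the 4 values lay between 1.19 and 1.34 (change 0.17, adjusted p = 0.423), and after DOS they were 1.33, 1.44 and 1.12 (change 0.19, adjusted p = 0.817). In the order of group means, DINCH (2.20) and MEHP (1.60) came first, without overlap between their arrays. DOS (1.30), BDB (1.28) and DMSO (1.1) followed and each overlapped its neighbour, and DOM (0.71) overlapped DMSO through its replicate 1.

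**Figure D2:**
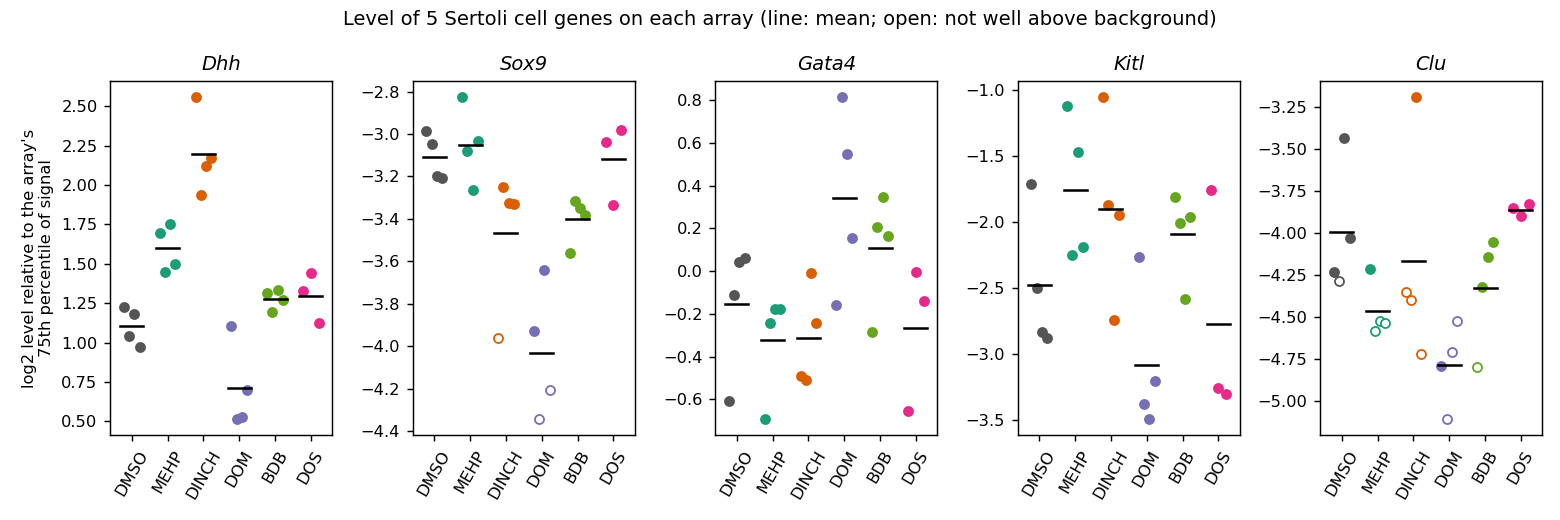
Level of Dhh, Sox9, Gata4, Kitl and Clu on each array (points, replicates in order from left), as log2 of the signal relative to the array's 75th percentile, by group, with the group mean as a line and open points where the probe was not well above background. The 4 DINCH arrays sit between 1.94 and 2.56 for Dhh, above all others, and the 4 DOM arrays lie below all DMSO arrays for Sox9.

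The genes that receive and answer the hedgehog signal were read beside Dhh. Ptch1 (the DHH receptor), Smo (its signal transducer) and the transcription factors Gli1, Gli2 and Gli3 were detected on every DMSO array, and Hhip, a hedgehog-binding protein, on no array. Ptch1 and Gli1 are also induced by the pathway. With DINCH the log2 change was -0.03 for Ptch1 (SE 0.32, adjusted p = 0.969) and 0.16 for Gli1 (SE 0.39, adjusted p = 0.841), and with MEHP it was -0.07 (SE 0.27) and -0.50 (SE 0.42). None of the 5 genes was called for either compound, while 8.26% of all genes tested were called for DINCH and 1.68% for MEHP. At these shares, the lack of a call among 5 genes is no result about the pathway.

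**Figure D3:**
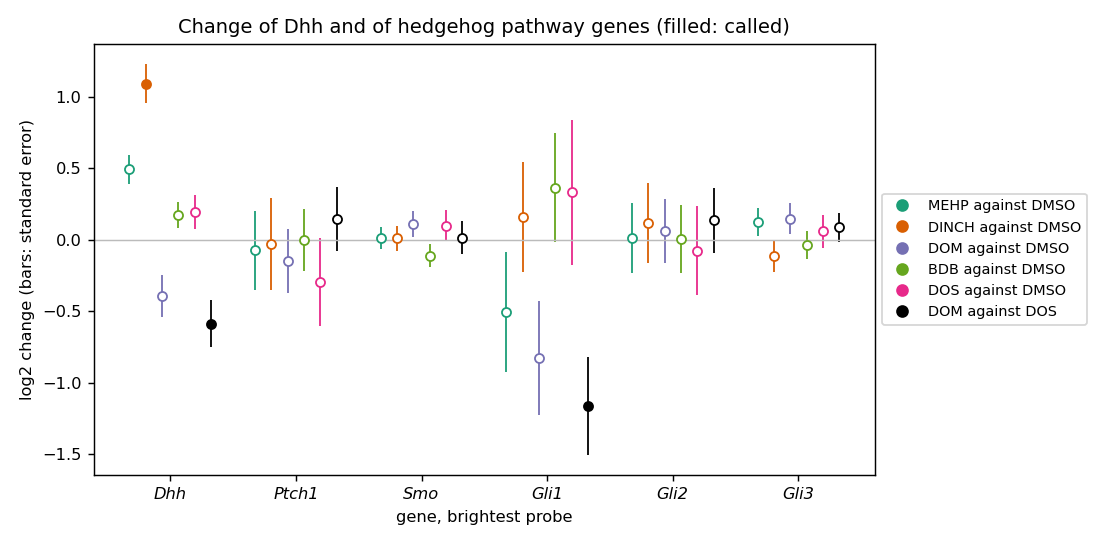
Log2 change of Dhh and of 5 hedgehog pathway genes (x axis, brightest probe of each) in the 6 comparisons (colours), with standard errors as bars and filled points for changes that were called. Dhh is filled for DINCH against DMSO and for DOM against DOS, and Gli1 only for DOM against DOS.

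Sox9, the factor that directs Sertoli cell fate, was lower after DOM. The level of Sox9 was -2.98, -3.05, -3.20 and -3.21 on the DMSO arrays. On the DOM arrays it was -3.93, -4.34, -3.64 and -4.20, all below the lowest DMSO array. Sox9 was not above background on replicates 2 and 4 of DOM. It fell by 0.92 on the log2 scale (SE 0.15, 95% interval -1.27 to -0.57, adjusted p = 0.00253), which was 1.89-fold lower. The difference was -1.15, -0.52 and -1.0 within slides 1, 2 and 3. It was called under 19 of 20 alternatives and not after normexp background correction (offset 50). This gave -0.29, which passed the test (adjusted p = 0.0483) but not the limit on size. Sox9 entered the test through its detection on the DMSO arrays. It was the 1 gene called of the 4 members tested, while 20.5% of the 12005 genes tested were called and 10.6% were called lower.

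The other compounds left Sox9 closer to the vehicle. After DINCH it read -3.96, -3.25, -3.32 and -3.33, and after BDB -3.56, -3.32, -3.35 and -3.38. All 4 arrays of each group lay below the DMSO arrays, but neither change passed the test (-0.36, adjusted p = 0.199 for DINCH, and -0.29, adjusted p = 0.202 for BDB). Replicate 1 of DINCH was the lowest of these arrays and was not above background. For MEHP the change was 0.06 (95% interval -0.18 to 0.30) and for DOS -0.01 (95% interval -0.29 to 0.27).

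Gata4, which encodes a zinc finger factor of the somatic gonad, was not called in any of the 6 comparisons of 2 groups. It read -0.61, -0.11, 0.04 and 0.06 with DMSO and -0.16, 0.81, 0.55 and 0.16 with DOM. Those 2 groups overlapped through replicate 1 of DOM. The change of 0.49 did not pass the unpaired test (95% interval -0.02 to 1.01, adjusted p = 0.13). Without DOM replicate 1 it was called at 0.66 (adjusted p = 0.0463). With the replicate number as a block, a pairing not settled for DOM with DMSO, the change passed the test (adjusted p = 0.0373). At 1.41-fold it did not pass the limit on size. With MEHP, DINCH, BDB and DOS the changes were -0.17, -0.16, 0.26 and -0.12, with adjusted p of 0.691, 0.621, 0.583 and 0.959.

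Kitl varied more between replicates of a group than Dhh or Sox9 did. The level of Kitl was -1.71, -2.50, -2.83 and -2.88 with DMSO, -1.12, -2.25, -1.47 and -2.19 with MEHP, and -1.05, -1.87, -2.74 and -1.94 with DINCH. It was -2.26, -3.38, -3.49 and -3.21 with DOM, -1.81, -2.00, -2.58 and -1.96 with BDB, and -1.76, -3.26 and -3.30 with DOS. In all 6 groups the array of replicate 1 was the highest. These arrays lay on slide 1, together with the replicate 2 arrays of MEHP (-2.25) and DOM (-3.38).

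No Kitl change passed the unpaired test. It was 0.72 for MEHP (95% interval -0.01 to 1.46, adjusted p = 0.315), 0.58 for DINCH (adjusted p = 0.358), -0.61 for DOM (adjusted p = 0.185), 0.39 for BDB (adjusted p = 0.574) and -0.29 for DOS (adjusted p = 0.94). The intervals of MEHP, DINCH and DOM included changes of more than 1 log2 unit as well as 0. With the replicate number as a block, the DINCH change, for which the numbers pair the arrays, passed the test (adjusted p = 0.0456) but at 1.49-fold not the limit on size. The DOM change was called with this block (adjusted p = 0.00914) and without DOM replicate 1 (-0.88, adjusted p = 0.041). The numbers were not taken as pairs for DOM and DMSO, where the lowest correlation between arrays of the same number was 0.04. They were so taken for DOS with DMSO and for DOM with DOS, so this point was not settled.

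**Figure D4:**
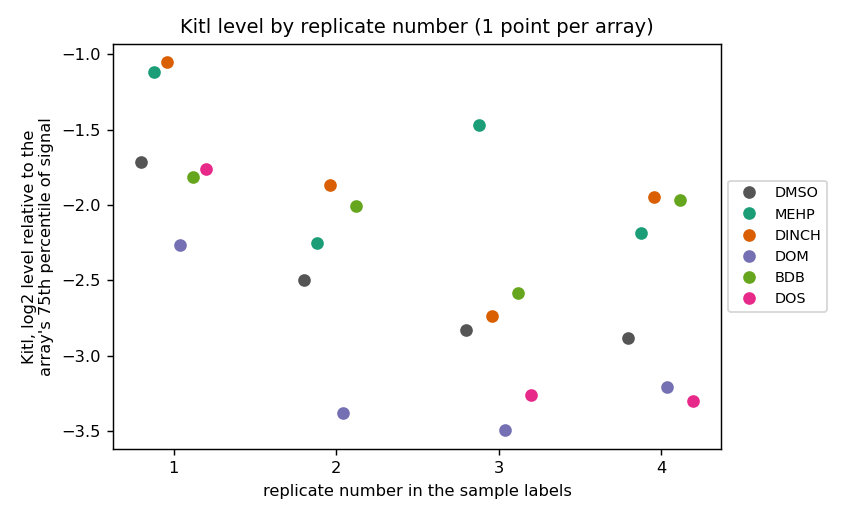
Level of Kitl on each array (points), as log2 of the signal relative to the array's 75th percentile, against the replicate number of the sample, with groups in colours and set slightly apart. Replicate 1 is the highest array of each group, from -2.26 with DOM to -1.05 with DINCH.

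Clu encodes clusterin, a secreted chaperone. Its level was near the limit of detection. With DMSO it read -4.23, -4.28, -3.43 and -4.03, and replicate 2 was not above background. With DOM it read -4.79, -5.11, -4.71 and -4.52, all below the DMSO arrays, and only replicate 1 was above background. The difference was -0.79 and was not tested in the main setting, because the probe was detected on every array of neither group. With BDB it was detected on 3 of 4 arrays, with MEHP and DINCH on 1 of 4, and with DOS on 3 of 3, where the change was 0.13 (95% interval -0.32 to 0.59, adjusted p = 0.941).

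The remaining members gave too little signal for a test. Gdnf was above background on 2 of 4 MEHP arrays (-4.61 and -3.92), 1 of 4 BDB arrays (-4.42) and none of the other groups. The mean over the MEHP arrays was -4.79 and over the DMSO arrays -5.88, and DMSO replicate 1, at -4.72, was not marked as detected. Amh was above background on DINCH replicate 4 alone, at -3.74, and Trf on 1 DOM array, at -4.24. Wt1 ranged from -7.34 to -5.52 and Fshr from -7.39 to -6.20 without detection.

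Neither BDB nor DOS had a called gene. Of all genes tested, 0% were called for BDB and 0% for DOS by limma, with 3494 of 24291 probes (14.4%) and 1725 of 24209 probes (7.13%) at an unadjusted p below 0.05. Among the members tested, 1 of 4 had such a p for BDB (Sox9) and 0 of 5 for DOS.

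DOM and DOS are esters of the same alcohol that differ in the acid, which has a carbon double bond in maleate and is saturated in succinate, and both were given at 100 μM for 48 hr. They were the 1 pair of compounds compared directly. Sox9, Dhh and Clu were lower with DOM than with DOS. For Sox9, the DOS arrays read -3.04, -3.33 and -2.98, above all 4 DOM arrays, and the difference was -0.91 (SE 0.18, 95% interval -1.33 to -0.50, adjusted p = 0.0123). For Clu, the DOS arrays read -3.85, -3.90 and -3.83, again above all DOM arrays, and the difference was -0.92 (SE 0.14, 95% interval -1.25 to -0.59, adjusted p = 0.00522). Sox9 and Clu entered this test only through their detection on the 3 DOS arrays, and 2 and 3 of the 4 DOM arrays, respectively, were not above background, so that the sizes of both differences rest in part on signals that were not above background. For Dhh the 3 DOS arrays also lay above all DOM arrays. The difference of -0.59 (SE 0.17, 95% interval -0.97 to -0.21, adjusted p = 0.0418) was at the limit on size, 1.5-fold.

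These 3 calls depended on the processing. Over 19 alternatives Clu was called in 17, Sox9 in 15 and Dhh in 7. No call was left after normexp background correction, which gave -0.36 for Sox9, -0.34 for Clu and -0.47 for Dhh. All 3 still passed the test (adjusted p = 0.0315, 0.0425 and 0.0326) and failed only the limit on size. That setting adds an offset of 50, which makes log2 changes of dim probes smaller. The processed signal was 13.1 to 46.1 for Sox9 and 8.1 to 32.1 for Clu. With no filter on dim probes no call was left either (adjusted p = 0.107 for Sox9, 0.0665 for Clu and 0.239 for Dhh). With the replicate number as a block, the Dhh difference became -0.52 (adjusted p = 0.0785) and the other calls held. Without DOS replicate 1 the adjusted p of Sox9 was 0.0525 and without DOS replicate 4 it was 0.0545, so that Clu alone was called. Dhh kept its call without DOM replicate 1 and lost it without any of the other 6 arrays (adjusted p from 0.071 to 0.122). The 3 called genes were of 5 members tested, while 15.2% of the 11935 genes tested were called and 8.06% were called lower. Sox9 and Clu were among the 5 only through the DOS arrays, where they were higher. The filter thus favoured a lower level with DOM for them, and the count of 3 is no result about the set. Gata4 was 0.61 higher with DOM (95% interval 0.04 to 1.18, adjusted p = 0.119), a difference called with all groups in 1 fit (adjusted p = 0.0473). Kitl differed by -0.31 with a 95% interval from -1.28 to 0.65, wide enough to hold differences in either direction.

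**Figure D5:**
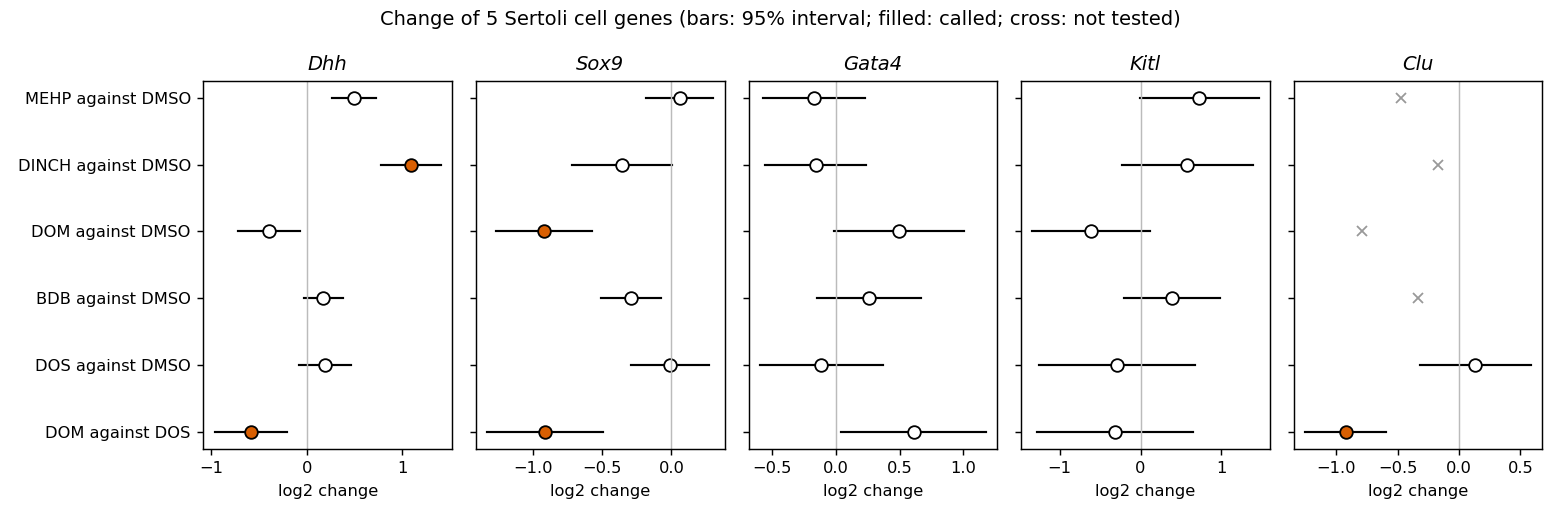
Log2 change of Dhh, Sox9, Gata4, Kitl and Clu (panels, each with its own x axis) in the 6 comparisons (rows), with 95% intervals as bars, filled points for called changes and crosses for changes that were not tested because of low signal. Called changes were Dhh for DINCH (1.09), Sox9 for DOM (-0.92), and Dhh (-0.59), Sox9 (-0.91) and Clu (-0.92) for DOM against DOS.

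Marker lists of other cell types were summed on each array, as multiples of the 75th percentile. Beside the DINCH and DOM results, all 7 lists overlapped the DMSO range. For example, the stromal list summed to 477 to 655 with DMSO, 528 to 567 with DINCH and 556 to 743 with DOM, and the granulosa list to 47.6 to 76.4, 67.9 to 77.6 and 59.8 to 102. Each sum was carried by the probes with the highest signal in its list. With DMSO the mean was 12.8 for Cyp17a1 in the Leydig list and 18 for Kdr in the endothelial list. In the myoid list it was 104 for Tagln and 31.9 for Acta2. The sums thus follow a few genes of 1 cell line and do not measure a share of cells of any type. Between DOM and DOS, 3 of the 7 lists did not overlap. The myoid list summed to 118 to 158 with DOM and 203 to 251 with DOS, the Leydig list to 8.28 to 12.1 and 14.2 to 15.1, and the endothelial list to 11.3 to 19.5 and 20 to 21.5. With DMSO the 3 lists summed to 116 to 149, 10.2 to 21.4 and 16.4 to 23.3. For the myoid list it was thus DOS, and not DOM, that lay outside the DMSO range. Their part in the differences of Sox9, Dhh and Clu was not tested.

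Among 15 other transcription factors of Sertoli cells and the gonad, 11 were tested in each comparison. Etv5, an ETS factor needed in Sertoli cells for spermatogonial stem cells, fell by 1.65 on the log2 scale with DINCH (SE 0.39, adjusted p = 0.0285) and by 1.14 with DOM (SE 0.19, adjusted p = 0.00234). Its level was 3.29 ± 0.36 with DMSO, 1.64 ± 0.87 with DINCH and 2.14 ± 0.24 with DOM (SD, n = 4). With DOM, Six4, a homeobox factor of early gonad growth, rose by 0.74 (adjusted p = 0.00149), and Cited2, a transcriptional coactivator of gonad development, rose by 0.74 (adjusted p = 0.00298) on its brighter probe. The median change of the 11 genes was 0.22 with DOM, beside -0.08 over all probes tested, and -0.02 with DINCH, beside -0.005. None was called for MEHP, BDB or DOS. Against DOS, DOM again had Six4 (0.75) and Cited2 (0.76, 1 of 2 probes) higher and Etv5 lower (-1.0).

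Of 18 receptors and response genes of the member ligands, 11 were detected in DMSO. Kit (the KITL receptor), Gfra1 and Ret (the GDNF receptor) and Amhr2 (the AMH receptor) were detected on no array. Tfrc, the transferrin receptor, fell with MEHP by 0.81 (SE 0.14, adjusted p = 0.0312) on its brighter probe and with DINCH by 1.15 (SE 0.14, adjusted p = 0.00363). The second Tfrc probe gave -0.89 (adjusted p = 0.176) and -1.09 (adjusted p = 0.0392). Tfrc was the only gene of the list called for either compound. With DOM, Lrp8, a receptor of the LDL receptor family, rose by 0.63 on 1 of 2 probes (adjusted p = 0.0195). Between DOM and DOS, Tfrc was 0.78 and Lrp8 0.68 higher with DOM, and Gli1 was 1.16 lower on the log2 scale, from -2.49 ± 0.76 (n = 3) to -3.65 ± 0.39 (n = 4), with adjusted p = 0.0477. Gli1 was detected on 2 of the 4 DOM arrays and entered this test only through the DOS arrays, so that the size of its difference rests in part on signals that were not above background.

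Among 18 other Sertoli cell products, 6 were detected on every DMSO array. The inhibin subunits were the products called for DOM. Inha, the alpha subunit, rose by 1.05 (SE 0.14, adjusted p = 0.000815) and Inhbb, the beta B subunit, by 1.61 (SE 0.27, adjusted p = 0.00248), and both were also higher with DOM than with DOS (0.69 and 1.16). With DINCH, Inha rose by 0.64 (adjusted p = 0.0276), while Inhbb gave -0.88 (adjusted p = 0.0983). Ptgds, a prostaglandin D synthase, rose with DINCH by 1.38 (SE 0.28, adjusted p = 0.0185). It was detected on 2 of 4 DMSO and 4 of 4 DINCH arrays, and it entered the test through the DINCH arrays. Cst9, a cystatin-related gene named here after its values were seen, was detected on 3 of 4 DMSO arrays and on no DOM array and was not tested. Its level was -4.13 ± 0.75 with DMSO (-5.22 to -3.57) and -6.75 ± 0.41 with DOM (-7.28 to -6.27), where no value was above background. With MEHP, DINCH, BDB and DOS, Cst9 was detected on 1 array each, at mean levels of -4.95, -4.74, -4.69 and -4.80. No product was called for MEHP, BDB or DOS.

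Of 12 other niche and growth factors, 7 were tested. Cxcl12, a chemokine that holds stem cells in their niche, rose with DOM by 1.70 (SE 0.41, adjusted p = 0.0135) and, on its second probe, by 1.27 (adjusted p = 0.0459). Vegfa, an angiogenic factor, fell by 0.65 with DINCH (SE 0.18, adjusted p = 0.0499) on its brighter probe, while a second probe gave -0.41 (adjusted p = 0.117). Fgf9, Lif, Bmp4 and Artn were detected on no array, and no factor was called for MEHP, BDB, DOS or DOM against DOS.

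The genes most like the members in pattern were read from the 23 arrays, over 11157 genes detected on all of them. For Dhh they were Plekha8 (r = 0.947), Ufl1 (r = 0.94) and Tmem107 (r = 0.934). For Kitl they were Pvr (r = 0.912), Lce1g (r = 0.9) and Plaur (r = 0.89), and for Gata4 they included Pde10a (r = 0.877) and Akr1c14 (r = 0.868). These Pearson correlations describe arrays that share treatments and slides, and carry no test.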

How the data were processed

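RNA of 23 TM4 cultures was labelled with Cy3 and hybridized to 1-colour Agilent mouse 8x60K arrays. The authors extracted the deposited intensity of each spot with Feature Extraction software, which subtracted background and marked detected, saturated and outlier spots. These values are linear and carry no scaling from array to array. A table of log2 values deposited by the authors, centred on the median of each probe, served as an alternative only. The flags for detection, saturation and outliers were taken as deposited.

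Each processed intensity (floor 1) was taken to log2, and the 75th percentile of the 59305 non-control spots of its array was subtracted. Averaging the spots of a probe, without outlier spots, gave 55681 probes. Of these, 26582 were named with 20145 genes through their RefSeq accession. The brightest probe gives the value of a gene, while calls used all probes. Tested probes were those that, in 1 or both groups, were well above background and not under the array's 20th percentile on all arrays. Each comparison used its own 2 groups in limma 3.58.1 (R 4.3.3), with Benjamini-Hochberg adjustment over all tested probes. The number of arrays limits the precision. The steps were tested on simulated data.

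The members, and the lists of related genes and markers, were chosen with earlier results of these data known. Named are all members, the called genes of each list (up to 5 per direction), and for 3 members (Dhh, Kitl, Gata4) the 3 most correlated genes. Some genes that meet this rule are not reported here. Intervals are 95%. Promoter bases came from RefSeq (GRCm38.p6) and 4 of the 10 members were in that table. The array was annotated on another build, so no probe positions were used. Figures were drawn with Python 3.11.15 and matplotlib 3.10.9.

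The replicate numbers are shared between groups. Arrays of the same number were checked for deviating together from the means of their groups. The correlation was 0.17 to 0.50 for DINCH, 0.25 to 0.43 for BDB and 0.20 to 0.45 for DOS with DMSO, and 0.10 to 0.40 between DOM and DOS, where every pair lay above 0.1 and the numbers pair the arrays. The printed tests are unpaired, and the fit with the replicate number as a block is given beside a result whose call it changes. For MEHP (-0.14 to 0.45) and DOM (0.04 to 0.43) with DMSO the numbers were not taken as pairs, as not every pair lay above 0.1. Yet the same numbers were taken as pairs for DOS with DMSO and for DOM with DOS. Whether they also pair DOM with DMSO was therefore not settled. Alternatives were quantile normalization, normexp background correction (offset 50), dim probes kept, detection on 1 array, and slide or replicate number as a block. Further ones were a joint fit of all groups, keeping outlier spots, the brightest probe alone and a trend in the variance. The last were the table of the authors, no limit on size, and leaving out each array in turn.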

Additional observations from a re-analysis of the deposited data

Results flagged for a closer look

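In 6 of 50 sets of 4 arrays (1 gene in 1 group), 1 array stood far from the other 3, where chance alone sets apart about 1 in 20. The sets share arrays, and those of Wt1 and Fshr hold only values not above background. The comparison therefore does not test for an excess. Replicate 1 of MEHP was the array apart for 4 genes. It was low for Gata4 (-0.69, others -0.24 to -0.18), for Wt1 (-7.34, others -6.50 to -6.35) and for Fshr (-7.39, others -6.60 to -6.47), and high for Clu (-4.21, others -4.58 to -4.52). Wt1 and Fshr were not above background there. In DINCH, Sox9 was low on replicate 1 (-3.96, others -3.33 to -3.25), which was not above background. Amh was high on DINCH replicate 4 (-3.74, others -6.39 to -6.10), the one array of the 23 on which it was detected.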

How the results depend on the processing

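Over 1180 alternatives for 60 changes of the members, none was called in the opposite direction. Most of the 60 changes were of members too dim to be tested in the main setting. These could be called in few alternatives, so the count says little about them. Of the 4 to 5 members tested per comparison, the number called was 0 for MEHP and 1 with no limit on size (Dhh). For DOM against DMSO it was 1, 0 after normexp, 2 with detection on 1 array (Sox9 and Clu) and 2 with the replicate block (Sox9 and Kitl). For DOM against DOS it was 3, 0 after normexp or with no filter on dim probes, and 4 with all groups in 1 fit (Gata4 added). Leaving out each array in turn gave 1 to 3 for DOM against DMSO and 1 to 3 for DOM against DOS. The 3 came without DOM replicate 1 (Sox9, Gata4 and Kitl), and Clu was called without DMSO replicate 2. The same gave 0 to 0 for MEHP, BDB and DOS and 1 to 1 for DINCH. The replicate block changed no other call of a member beside Kitl for DOM and Dhh for DOM against DOS (-0.52). The cause of the other shifts was not tested.

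Over all genes, the 201 called for MEHP became 3 with no filter, 115 after normexp, 127 with detection on 1 array, 360 with no limit on size and 88 to 237 without 1 array. The 984 for DINCH became 97, 594 and 1770 with no filter, normexp and no limit on size, and 571 to 1055 without 1 array. The 2463 for DOM became 1627 after normexp and 4641 with no limit on size, and the 1815 for DOM against DOS became 401 with no filter and 2911 with no limit on size. The 0 for BDB became 42, 100, 120, 19 and 82 with normexp, slide block, all groups in 1 fit, brightest probe only and variance trend, and the 0 for DOS became 2 after normexp and up to 8 without 1 array. Sox9, Clu and Gdnf lay near background, which limits their precision.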
